A study of Mus musculus with 3 samples.

Results

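The clustered protocadherins were read in 3 mouse melanoma cell lines, YUMM2.1, YUMM1.7 and YUMM1.1. Members were all rows of the authors' table whose gene symbol names an alpha, beta or gamma protocadherin gene of the cluster, which gave 58 of 25791 symbols: 14 alpha, 22 beta and 22 gamma genes. The rule used gene symbols and no expression value, but it was set with earlier results of these data known. The YUMM (Yale University Mouse Melanoma) lines were grown from melanomas of engineered mice, and the series concerns the response of such tumors to PD-1 blockade. The labels give only the name of each line, with no treatment, genotype, age or culture condition, and total RNA of each line was sequenced as 1 library. Without replicates the differences describe these libraries and carry no p-value.

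Protocadherins are cell surface adhesion molecules of the cadherin superfamily. In the alpha and gamma clusters each gene has its own promoter and its own large first exon, which encodes the extracellular, transmembrane and proximal intracellular parts, and this exon is spliced to constant exons that all genes of the cluster share. Beta genes consist of a single large exon and share no constant exon. In neurons, most promoters of the locus are chosen at random in each cell, through CTCF and cohesin, and the resulting set of isoforms lets a cell recognize itself, whereas the C-type genes at the end of the alpha and gamma clusters are used more uniformly.

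All 58 members lie on chromosome 18 in the RefSeq annotation of GRCm38, which was used here only for names and order, since the authors' build is not given in the sources used here. Expression was given as FPKM, which divides fragments by the length of the transcript and the size of the library, so levels of different genes can be set side by side. Most low FPKM values lay near multiples of the value of 1 fragment, and their spacing implied a depth of 87.3 M fragments after scaling in YUMM2.1, 45.8 M in YUMM1.7 and 68.7 M in YUMM1.1. At 1 FPKM, a transcript of 4.7 kb, about the length of a gamma isoform, would then hold about 410.5 fragments in YUMM2.1, 215 in YUMM1.7 and 323 in YUMM1.1, and 3 fragments on it correspond to 0.00731, 0.0139 and 0.00929 FPKM, counting error only. As deposited, 4 ribosomal protein genes were listed at 0 in YUMM1.7 while standing at 3097 FPKM or more in YUMM2.1 and 4459 or more in YUMM1.1. A value listed at 0 is therefore not read as absence. In bulk RNA, fewer cells that use a gene and less RNA per cell cannot be told apart.

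The labelled cell type was set against markers first. Sox10, which defines the melanocyte and neural crest lineage, stood at 44.3 FPKM in YUMM2.1, 0.00821 in YUMM1.7 and 107 in YUMM1.1, and Mlana at 6.18, 0 and 0.159 FPKM. The pigment genes Tyr, Tyrp1, Dct and Pmel were at or below 0.318 FPKM in every line, so most melanocyte markers were near 0 and in YUMM1.7 none of the 7 listed reached 1 FPKM. Of 5 neuron markers, Tubb3 was high in all lines, at 32.9 FPKM in YUMM2.1, 17.9 in YUMM1.7 and 230 in YUMM1.1, whereas Snap25 and Syt1 were at or below 0.0684 FPKM. Map2 had 13.2 FPKM in YUMM2.1, 0.159 in YUMM1.7 and 4.08 in YUMM1.1, and Stmn2 was highest in YUMM1.7, with 0.308, 3.33 and 0.0328 FPKM. The 6 fibroblast markers summed to 3.91 FPKM in YUMM2.1, 157 in YUMM1.7 and 0.722 in YUMM1.1, with Col1a2 alone at 127 FPKM in YUMM1.7. The leukocyte list summed to 28.9, 0.706 and 5.01 FPKM, almost all of it Lyz2 in YUMM2.1 and YUMM1.1 and Cd53 in YUMM1.7, and its defining gene Ptprc was at or below 0.00217 FPKM. Endothelial and epithelial markers were at or below 0.153 FPKM. The neuron sums of 46.5 FPKM in YUMM2.1, 21.5 in YUMM1.7 and 234 in YUMM1.1 are mostly Tubb3. They ran in the order of the sum of the 58 protocadherins, 183, 60.03 and 241 FPKM. Of that sum, 77.8% to 89.8% was the single gene Pcdhgc3. Of the neuron markers only Tubb3 had that order, and Map2, Stmn2, Snap25 and Syt1 did not. The fibroblast sum was highest where the protocadherin sum was lowest. The part of the cells or states behind these markers in the protocadherin values was not tested.

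The isoforms also share sequence. In the GENCODE M21 transcripts, found for 57 members, the median share of 50-base stretches that also occur in another member was 59.5% for alpha genes (range 48.2% to 63.9%) and 44.9% for gamma genes (6.37% to 54.6%), against 4.26% for beta genes (0% to 12.0%). The lowest gamma share was that of Pcdhgc5. The sources used here do not say how fragments were divided between members that share sequence.

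The locus was dominated by a single gene, Pcdhgc3, a C-type gamma gene whose protein is known to bind Axin1 and to restrain Wnt signaling. Pcdhgc3 stood at 156 FPKM in YUMM2.1, 46.7 in YUMM1.7 and 216 in YUMM1.1. It was the member with the highest value in each line and ranked 559th, 1936th and 546th of all symbols in that order of lines. Pcdhgc3 alone held 85.1% of the summed FPKM of the 58 members in YUMM2.1, 77.8% in YUMM1.7 and 89.8% in YUMM1.1. On the log2(FPKM + 1) scale its difference was 1.72 for YUMM2.1 minus YUMM1.7 and -2.19 for YUMM1.7 minus YUMM1.1. The difference of -0.47 for YUMM2.1 minus YUMM1.1 was within 2-fold and changed sign when the lines were rescaled to a common FPKM sum.

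The other C-type gamma genes were far lower, and they differed in their order across the lines. Pcdhgc5, whose protein is known to interact with GABA-A receptors in neurons, stood at 0.621 FPKM in YUMM2.1, 1.97 in YUMM1.7 and 0.471 in YUMM1.1, so it was highest in the line where Pcdhgc3 was lowest. Pcdhgc4, required for the survival of many interneurons, stood at 0.354 FPKM in YUMM2.1, 0.0992 in YUMM1.7 and 0.304 in YUMM1.1. Its value in YUMM1.7 was the lowest of the lines, as for Pcdhgc3. The Pcdhgc4 level in YUMM2.1 was 3.57 times that in YUMM1.7, and that in YUMM1.7 was 0.327 times that in YUMM1.1. On the FPKM + 1 scale, which understates the change of low genes, these differences were less than 2-fold.

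**Figure D1:**
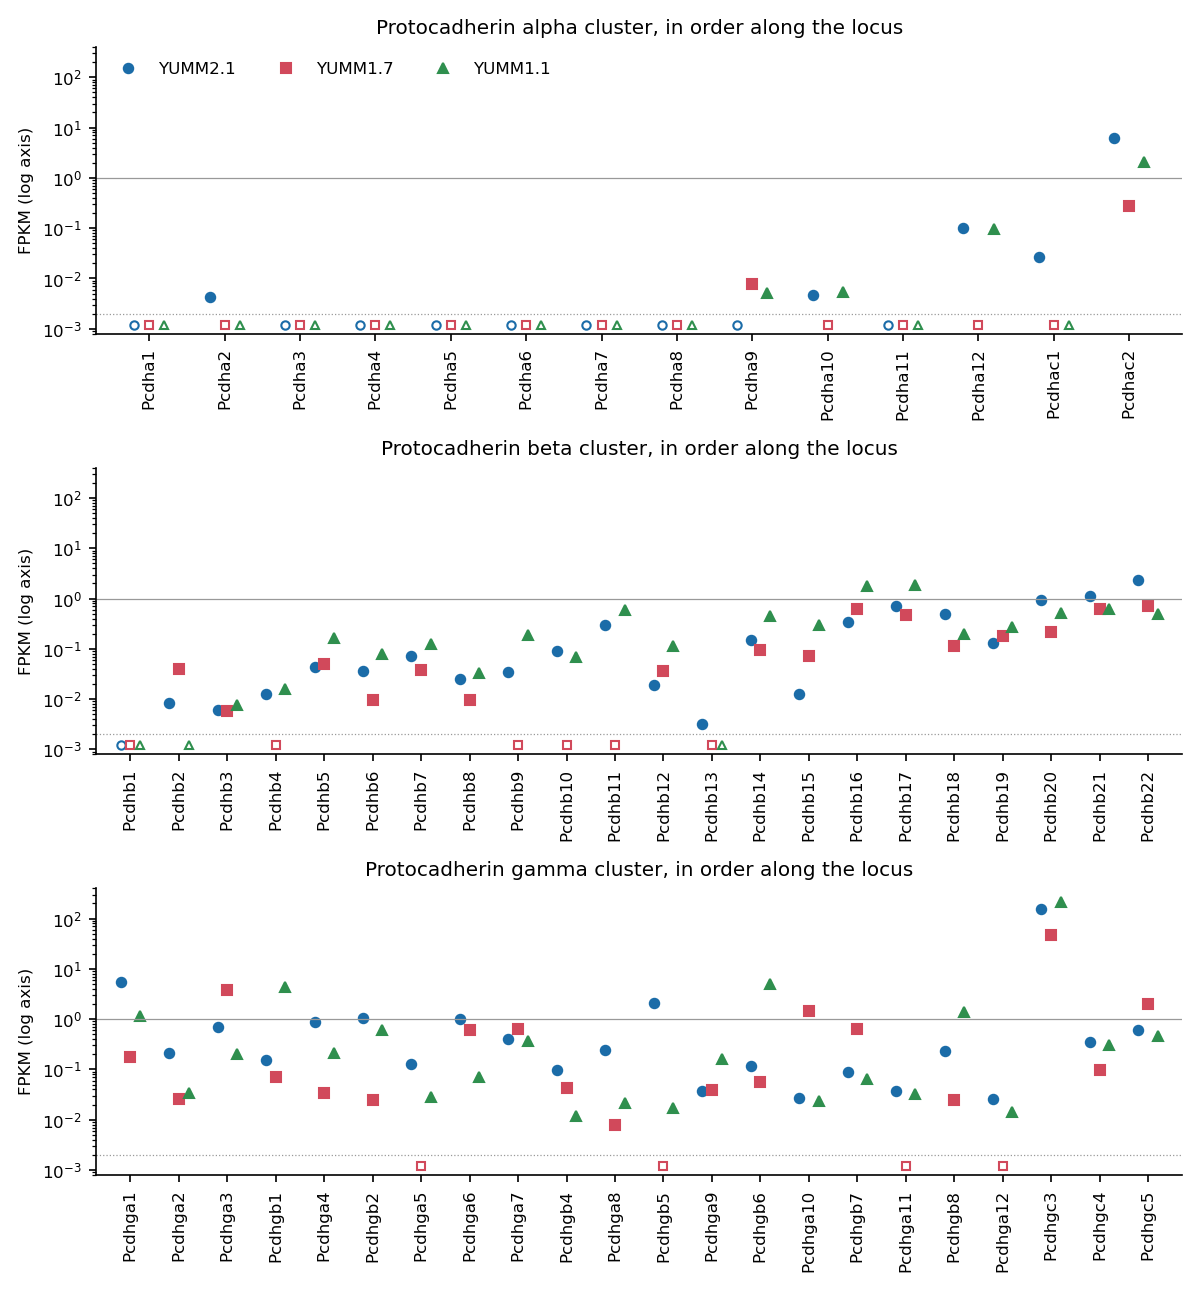
FPKM of the 58 clustered protocadherin genes (log axis) in YUMM2.1 (circles), YUMM1.7 (squares) and YUMM1.1 (triangles), in order along the locus, with open symbols under the dotted line for values listed at 0. The grey line marks 1 FPKM: Pcdhgc3 stands far above it in all lines, and most alpha genes are listed at 0.

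The alpha cluster was nearly silent apart from its last gene. Pcdhac2, the C-type alpha gene that serotonergic neurons use for the spacing of their axons, stood at 6.27 FPKM in YUMM2.1, 0.273 in YUMM1.7 and 2.04 in YUMM1.1. It held 97.9%, 97.3% and 95.0% of the summed alpha FPKM, and its level was 22.9 times as high in YUMM2.1 as in YUMM1.7 and 3.08 times as high as in YUMM1.1. The second C-type alpha gene, Pcdhac1, was at 0.027 FPKM in YUMM2.1 and listed at 0 in the other lines. Of the 12 remaining alpha genes, 8 were listed at 0 in all lines. Pcdha12, the one nearest to the C-type genes, stood at 0.101 FPKM in YUMM2.1 and 0.0969 in YUMM1.1 and was listed at 0 in YUMM1.7. No other member of these 12 passed 0.01 FPKM in any line.

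Summed over the 14 genes, the alpha cluster stood at 6.40 FPKM in YUMM2.1, 0.281 in YUMM1.7 and 2.14 in YUMM1.1. These sums follow Pcdhac2. Without the C-type genes the alpha sums were 0.11 FPKM in YUMM2.1, 0.0076 in YUMM1.7 and 0.108 in YUMM1.1, and the log2 ratio of YUMM2.1 over YUMM1.1 was 0.028, against 1.58 with them.

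The beta cluster was expressed at a low level spread over many genes. Its 22 genes summed to 6.84 FPKM in YUMM2.1, 3.30 in YUMM1.7 and 7.86 in YUMM1.1, so the sum in YUMM2.1 was 2.07 times that in YUMM1.7. The sum in YUMM2.1 was 0.871 times that in YUMM1.1, a direction that turned round under the common FPKM sum and, with a log2 ratio of 0.022, under a common upper quartile. YUMM2.1 had 9 beta genes at 0.1 FPKM or more, YUMM1.7 had 7 and YUMM1.1 had 14. The highest beta gene held 33.8% of the sum in YUMM2.1, 21.8% in YUMM1.7 and 23.6% in YUMM1.1.

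Only 4 beta genes reached 1 FPKM, each in a single line. Pcdhb22 stood at 2.31 FPKM in YUMM2.1, 0.719 in YUMM1.7 and 0.497 in YUMM1.1, and Pcdhb21 at 1.11, 0.616 and 0.606 FPKM. Both were highest in YUMM2.1. Pcdhb17 stood at 0.716 FPKM in YUMM2.1, 0.470 in YUMM1.7 and 1.85 in YUMM1.1, and Pcdhb16 at 0.345, 0.623 and 1.78 FPKM. Both were highest in YUMM1.1. On the FPKM + 1 scale, 2-fold was passed by Pcdhb22 (1.15) and Pcdhb16 (-1.05), both for YUMM2.1 minus YUMM1.1. In all, 14 of the 21 beta genes with a value above 0 were highest in YUMM1.1, 6 in YUMM2.1 and 1, Pcdhb2, in YUMM1.7. No such count was made over all symbols.

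Because beta genes have a single exon, their FPKM could be read back as fragments. Of the 19 beta values that rounded to 1 to 10 fragments, 18 lay within 0.25 of a whole number. Pcdhb22 corresponded to about 619 fragments in YUMM2.1, 101 in YUMM1.7 and 105 in YUMM1.1, and Pcdhb16 to about 159, 150.2 and 646. Those values rest on many fragments, but 4 beta genes in YUMM2.1, 9 in YUMM1.7 and 4 in YUMM1.1 had under 3. Some genes counted as highest in YUMM1.1 had nearly equal fragments in YUMM2.1 and YUMM1.1. These were Pcdhb3 (2.02 and 2.03), Pcdhb4 (4.04 and 4.06) and Pcdhb8 (5.22 and 5.24). Their order between these 2 lines rests on the scaling of the libraries. Pcdhb11 stood at 0.298 FPKM in YUMM2.1 and 0.593 in YUMM1.1, about 94.1 and 147 fragments, and was listed at 0 in YUMM1.7. Pcdhb9, at 0.0345 FPKM in YUMM2.1 and 0.186 in YUMM1.1, was listed at 0 there too.

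Beta genes nearer to the gamma cluster had the higher values in all lines. Pcdhb14 to Pcdhb22, the last 9 genes, held 90.5% of the beta sum in YUMM2.1, 94.3% in YUMM1.7 and 82.3% in YUMM1.1. Their median was 0.491 FPKM in YUMM2.1, 0.219 in YUMM1.7 and 0.497 in YUMM1.1, and that of Pcdhb1 to Pcdhb13 was 0.0256, 0.00575 and 0.0687 FPKM. This division was made after the values were seen. Over the 22 genes, Spearman's rho between order along the locus and FPKM was 0.79 in YUMM2.1, 0.73 in YUMM1.7 and 0.77 in YUMM1.1, a description within each library of neighboring paralogs.

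**Figure D2:**
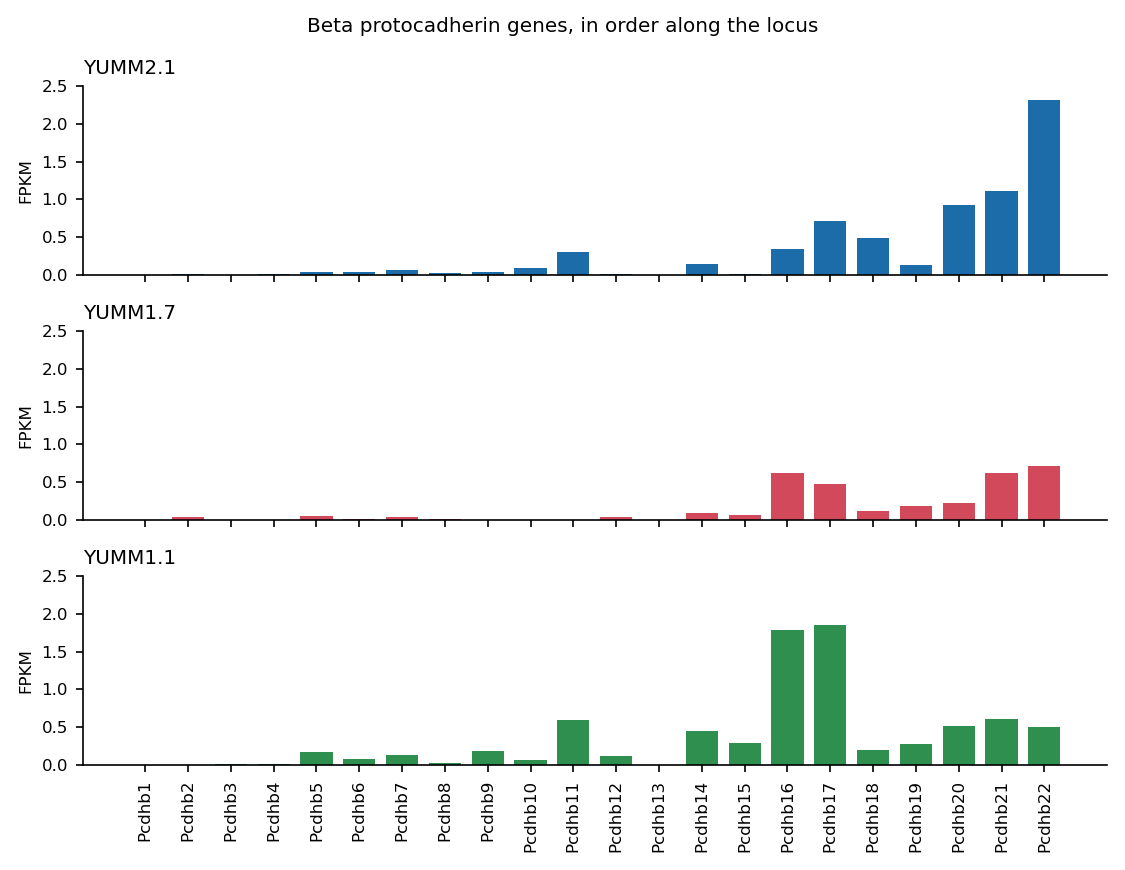
FPKM of the 22 beta protocadherin genes in order along the locus, with a panel each for YUMM2.1, YUMM1.7 and YUMM1.1 and bars for the value of the 1 library per line. Bars from Pcdhb14 on hold 82.3% to 94.3% of each panel's sum, with Pcdhb22 highest in YUMM2.1 and YUMM1.7 and Pcdhb17 highest in YUMM1.1.

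In the gamma A and gamma B genes, 19 alternate isoforms spliced to the same constant exons as Pcdhgc3, the leading genes differed between lines. YUMM2.1 was led by Pcdhga1 at 5.57 FPKM, followed by Pcdhgb5 at 2.06. YUMM1.7 was led by Pcdhga3 at 3.85 FPKM, followed by Pcdhga10 at 1.42. YUMM1.1 was led by Pcdhgb6 at 5.08 FPKM, followed by Pcdhgb1 at 4.33. No gene was among the leading pair of more than 1 line. Each pair was picked by the same values, and how often random pairs of these 19 genes would also fail to overlap was not tested. The lack of overlap is therefore not read as a trait of the lines. The pair held 58.4% of the summed FPKM of these 19 genes in YUMM2.1, 68.6% in YUMM1.7 and 67.9% in YUMM1.1.

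Because each leading gene was picked by its high value in a single line, lower values elsewhere are partly set by that choice. The values of these genes in the other lines are therefore given as a description only. Outside the line that it led, Pcdhga1 still reached 1.16 FPKM, in YUMM1.1, and Pcdhga3 0.693 FPKM, in YUMM2.1. Pcdhgb6 stood at 0.115 FPKM in YUMM2.1 and 0.0562 in YUMM1.7, against 5.08 in YUMM1.1. Pcdhgb1 stood at 0.152 and 0.0692 FPKM, against 4.33 in YUMM1.1, and the third gene of that line, Pcdhgb8, at 0.228 and 0.0247 FPKM, against 1.40. All 3 were lower in YUMM1.7 than in YUMM1.1 by more than 2-fold on the FPKM + 1 scale, with differences of -2.53, -2.32 and -1.23.

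Pcdhga3 stood at 0.693 FPKM in YUMM2.1, 3.85 in YUMM1.7 and 0.201 in YUMM1.1. Pcdhga10 stood at 0.0272 FPKM in YUMM2.1, 1.42 in YUMM1.7 and 0.0232 in YUMM1.1. Both were thus highest in YUMM1.7, although that line had the lowest gamma sum. Pcdhgb7, below 1 FPKM in all lines, had the same order, at 0.0907 FPKM in YUMM2.1, 0.648 in YUMM1.7 and 0.0639 in YUMM1.1.

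Pcdhga1 was the only gamma A or gamma B gene to reach 1 FPKM in both YUMM2.1 and YUMM1.1. It stood at 5.57 FPKM in YUMM2.1, 0.179 in YUMM1.7 and 1.16 in YUMM1.1. Pcdhgb5 stood at 2.06 FPKM in YUMM2.1 and 0.0175 in YUMM1.1 and was listed at 0 in YUMM1.7. Pcdhgb2 stood at 1.05 FPKM in YUMM2.1, 0.0246 in YUMM1.7 and 0.614 in YUMM1.1, and Pcdhga6 at 1.03, 0.612 and 0.0695 FPKM. YUMM2.1 had the highest value for all 4 of these genes. Pcdhga5, at 0.126 FPKM in YUMM2.1 and 0.0289 in YUMM1.1, was another gene listed at 0 in YUMM1.7.

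By subfamily, the 12 gamma A genes summed to 9.27 FPKM in YUMM2.1, 6.82 in YUMM1.7 and 2.33 in YUMM1.1, and the 7 gamma B genes to 3.79, 0.866 and 11.5 FPKM. Gamma A genes held more than gamma B genes in YUMM2.1 and YUMM1.7, and gamma B genes held more in YUMM1.1. The summed level of all 19 differed less, at 13.1 FPKM in YUMM2.1, 7.68 in YUMM1.7 and 13.8 in YUMM1.1. For the whole gamma sum the log2 ratio was 1.59 for YUMM2.1 over YUMM1.7 and -2.03 for YUMM1.7 over YUMM1.1, and without Pcdhgc3 it was 0.52 and -0.58. Spearman's rho of the 19 values with order along the locus was -0.64 in YUMM2.1, -0.26 in YUMM1.7 and -0.31 in YUMM1.1, opposite in sign to the beta genes.

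**Figure D3:**
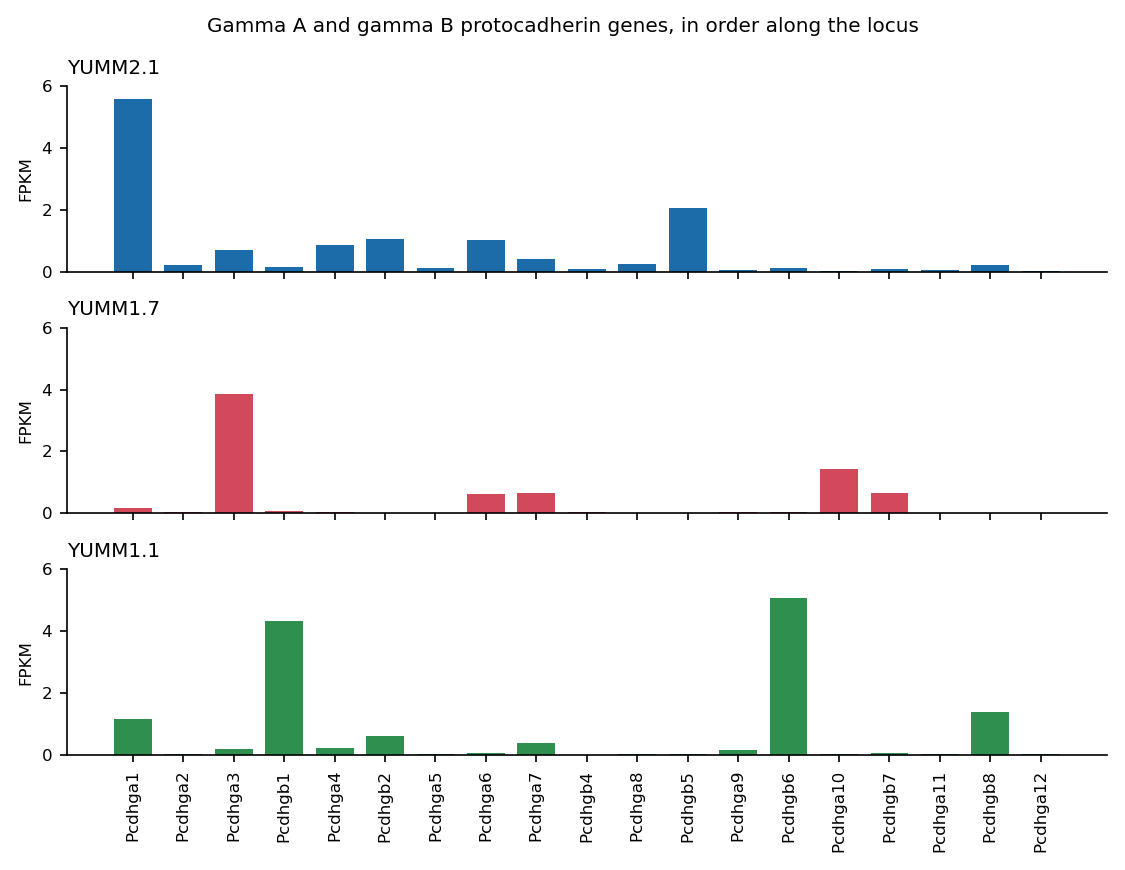
FPKM of the 19 gamma A and gamma B protocadherin genes in order along the locus, with a panel each for YUMM2.1, YUMM1.7 and YUMM1.1 and bars for the value of the 1 library per line. The tallest bars are Pcdhga1 (5.57) in YUMM2.1, Pcdhga3 (3.85) in YUMM1.7 and Pcdhgb6 (5.08) in YUMM1.1.

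The rank of the gamma A and gamma B genes was hardly kept between lines, whereas that of the beta genes was. Spearman's rho over the 19 genes was 0.05 between YUMM2.1 and YUMM1.7, 0.35 between YUMM2.1 and YUMM1.1 and 0.36 between YUMM1.7 and YUMM1.1. Over the 22 beta genes it was 0.73, 0.87 and 0.71. Over the 18497 symbols above 0 in any line it was 0.89, 0.94 and 0.89. These are descriptions across genes that share a library and, in the gamma cluster, constant exons, and the difference between the clusters was not tested.

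Counted over the whole family, 42 of the 58 members were below 1 FPKM in every line, while 11741 of all 25791 symbols reached it in some line. By line, 13.8% of members in YUMM2.1, 6.90% in YUMM1.7 and 13.8% in YUMM1.1 reached 1 FPKM, against 41.8%, 40.7% and 40.4% of all symbols. The other 16 members comprised Pcdhgc3 in all lines, Pcdhac2 and Pcdhga1 in YUMM2.1 and YUMM1.1, and 13 genes that reached 1 FPKM in exactly 1 line: 5 in YUMM2.1, 3 in YUMM1.7 and 5 in YUMM1.1. A gene that enters such a count through its highest line is likely to be lower elsewhere. Among all symbols whose highest value lay between 1 and 6.27 FPKM, the range of these genes without Pcdhgc3, 24.5% reached 1 FPKM in exactly 1 line, against 86.7% of the 15 members. At 0.1 FPKM, 13 of 34 members (38.2%) did so, against 19.1% of all symbols whose highest value lay between 0.1 and 6.27 FPKM.

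**Figure D4:**
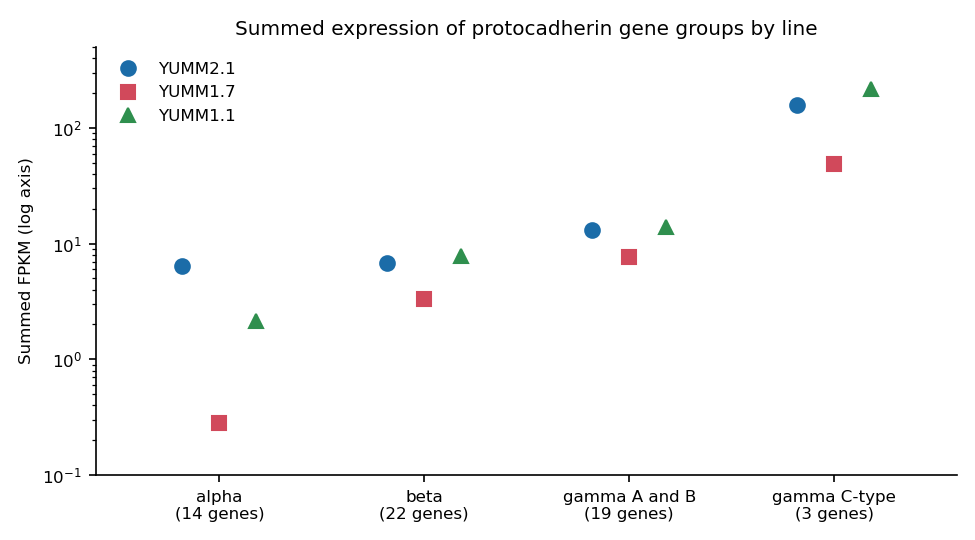
Summed FPKM (log axis) of the alpha genes, beta genes, gamma A and B genes and gamma C-type genes in YUMM2.1 (circles), YUMM1.7 (squares) and YUMM1.1 (triangles), 1 library each. YUMM1.7 is lowest in each group, from 0.281 FPKM for alpha to 48.8 FPKM for the gamma C-type genes.

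The lines were then compared in pairs, with a gene counted as higher or lower at a 2-fold difference on the FPKM + 1 scale. The 3 comparisons share libraries and are not independent of each other. In YUMM2.1 against YUMM1.7, 5 of the 58 members (8.62%) were at least 2-fold higher, against 5.34% of all symbols, and 2 (3.45%) at least 2-fold lower, against 8.90%. The higher genes were Pcdhac2 (2.51), Pcdhga1 (2.48), Pcdhgc3 (1.72), Pcdhgb5 (1.61, listed at 0 in YUMM1.7) and Pcdhgb2 (1.0), and the lower genes were Pcdhga3 (-1.52) and Pcdhga10 (-1.24). Pcdhgb2 lay at the limit and did not pass when the lines were rescaled by the median ratio, at 0.999, or with a pseudocount of 5, at 0.27. Rescaled to a common FPKM sum, Pcdhga3 and Pcdhga10 no longer passed 2-fold, at -0.66 and -0.83. The median difference of the members was 0.04, against 0 for all symbols, with 36 members above 0 and 13 below. Of all 25791 symbols, 9549 were above 0 and 8393 below.

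In YUMM2.1 against YUMM1.1, 4 members (6.90%) were at least 2-fold higher, against 2.83% of all symbols, and 3 (5.17%) at least 2-fold lower, against 3.48%. The higher genes were Pcdhga1 (1.60), Pcdhgb5 (1.59), Pcdhac2 (1.26) and Pcdhb22 (1.15), and the lower genes were Pcdhgb6 (-2.45), Pcdhgb1 (-2.21) and Pcdhb16 (-1.05). Pcdhb16 did not pass under the common sum, at -0.90, or the common upper quartile, at -0.97. The median difference was 0 for the members and for all symbols, with 28 members above 0 and 21 below. Of all symbols, 9148 were above 0 and 8869 below.

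In YUMM1.7 against YUMM1.1, 3 members (5.17%) were at least 2-fold higher, against 6.16% of all symbols, and 5 (8.62%) at least 2-fold lower, against 4.51%. The higher genes were Pcdhga3 (2.01), Pcdhga10 (1.24) and Pcdhgc5 (1.01). Under the common sum Pcdhga10 stood at 0.86 and Pcdhgc5 at 0.55, below 2-fold, and under the common upper quartile Pcdhgc5 stood at 0.95. Beside Pcdhgb6, Pcdhgb1 and Pcdhgb8, the lower genes were Pcdhgc3 (-2.19) and Pcdhac2 (-1.25). The median difference was -0.02 for the members and 0 for all symbols, with 11 members above 0 and 35 below. Of all symbols, 8842 were above 0 and 8749 below.

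Over the 58 members these shares lie within a few genes of the background in each comparison. However, 42 members could not pass the rule because they never reached 1 FPKM. Among the 16 with a mean of at least 0.5 FPKM, 31.25% were higher and 6.25% lower in YUMM2.1 against YUMM1.7. The shares were 25% and 18.75% in YUMM2.1 against YUMM1.1, and 12.5% and 31.25% in YUMM1.7 against YUMM1.1. All symbols with that mean gave 11.3% and 18.9%, 5.93% and 7.46%, and 13.0% and 9.68%. A mean filter keeps low genes through their highest line, and the difference was not tested. A pseudocount of 0.1 gives weight to low values. With it, 16 of the 58 members were at least 2-fold higher and 4 lower in YUMM2.1 against YUMM1.7. All symbols gave 10.6% and 12.7%. YUMM2.1 against YUMM1.1 gave 9 and 8 members, beside 6.91% and 5.76% of all symbols, and YUMM1.7 against YUMM1.1 gave 5 and 15, beside 10.0% and 8.24%. These counts include values that rest on few fragments. Transcript length moved with the comparisons. Of the symbols with a mean of at least 0.5 FPKM and a transcript of 2588 to 8695 nt, the range of the members, 13.8% were at least 2-fold higher and 11.4% lower in YUMM2.1 against YUMM1.7, while among all symbols with that mean the shares were 11.3% and 18.9%. The same shares were 5.92% and 5.22%, beside 5.93% and 7.46%, in YUMM2.1 against YUMM1.1. In YUMM1.7 against YUMM1.1 they were 8.81% and 11.4%, beside 13.0% and 9.68%. Of the 6320 symbols with that mean and length range, 3722 were above 0 and 2598 below in YUMM2.1 against YUMM1.7. They were 3224 and 3088 in YUMM2.1 against YUMM1.1, and 2673 and 3645 in YUMM1.7 against YUMM1.1. The part of length in the members' values was not tested.

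**Figure D5:**
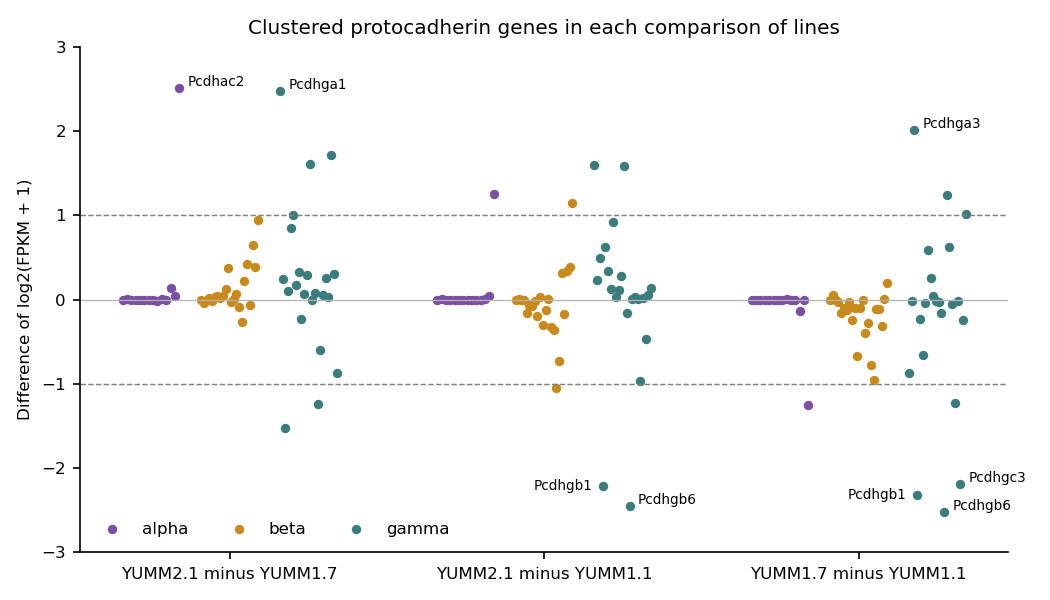
Difference of log2(FPKM + 1) for each alpha, beta and gamma protocadherin gene in the 3 comparisons of lines, 1 point per gene, with dashed lines at a 2-fold difference. Most points lie near 0, and the named genes, past 2 or below -2, are Pcdhac2 and members of the gamma cluster.

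Other genes tied to the family were read from lists, which were chosen with earlier results of these data known. Their counts are to be set against the shares of all symbols given above for the FPKM + 1 scale: 5.34% higher and 8.90% lower for YUMM2.1 over YUMM1.7, 2.83% and 3.48% for YUMM2.1 over YUMM1.1, and 6.16% and 4.51% for YUMM1.7 over YUMM1.1. With 12 to 18 genes a list, 1 gene is near those shares. Of 12 protocadherins outside the clusters, 2 were at least 2-fold higher and 1 was lower in the YUMM2.1 library when set against YUMM1.7, 1 was higher and 0 were lower when it was set against YUMM1.1, and YUMM1.7 against YUMM1.1 had 1 and 1. Pcdh1, which lies beyond the gamma cluster on the same chromosome, stood at 43.3 FPKM in YUMM2.1, 8.16 in YUMM1.7 and 50.9 in YUMM1.1, in the order of lines that Pcdhgc3 had. Pcdh18 stood at 8.44 FPKM in YUMM2.1, 1.56 in YUMM1.7 and 2.33 in YUMM1.1. Pcdh19, an X-linked gene mutated in an epilepsy of girls, had 0 listed for YUMM2.1, 4.5 FPKM for YUMM1.7 and 0.00701 for YUMM1.1. The other 9 differed by less than 2-fold on the FPKM + 1 scale in each comparison.

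Of 18 factors known to shape or silence the locus, 1 was at least 2-fold higher in YUMM2.1 than in YUMM1.7, 0 were lower, and 0 passed in either direction in the other comparisons. Ctcf, which binds the promoters and enhancers of the locus, stood at 11.6 FPKM in YUMM2.1, 9.15 in YUMM1.7 and 12.4 in YUMM1.1. Smchd1, a silencing protein known to repress clustered protocadherins in mouse cells, stood at 7.03, 5.40 and 5.63 FPKM. The gene that passed was the DNA methyltransferase gene Dnmt3a, at 3.59 FPKM in YUMM2.1, 0.873 in YUMM1.7 and 2.28 in YUMM1.1.

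Among 17 genes for proteins that bind or process clustered protocadherins, YUMM2.1 against YUMM1.7 had 5 at least 2-fold higher and 1 lower, YUMM2.1 against YUMM1.1 had 2 and 0, and YUMM1.7 against YUMM1.1 had 0 and 2. Most of these genes were well expressed, and of all symbols with a mean of at least 0.5 FPKM 11.3% were higher and 18.9% lower in the first of these comparisons. Adam10, a protease that sheds protocadherin ectodomains, stood at 80.6 FPKM in YUMM2.1, 16.3 in YUMM1.7 and 75.0 in YUMM1.1. Fyn, a kinase gene, stood at 17.7, 4.57 and 23.9 FPKM. Both were lowest in YUMM1.7, as Pcdhgc3 was.

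The WAVE complex, an actin regulator that binds protocadherin tails, was uneven in its subunits. Abi1 stood at 47.6 FPKM in YUMM2.1, 20.05 in YUMM1.7 and 31.4 in YUMM1.1, and Abi2 at 6.28, 2.39 and 1.78 FPKM. The short subunit gene Brk1, under its older symbol in the table, ran the other way at 275 FPKM in YUMM2.1, 858 in YUMM1.7 and 549 in YUMM1.1. Nlgn1, a synaptic adhesion gene, stood at 1.62 FPKM in YUMM2.1 and 0.117 in YUMM1.1 and was listed at 0 in YUMM1.7.

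Of 13 genes around the locus, YUMM2.1 against YUMM1.7 had 1 at least 2-fold higher and 2 lower, YUMM2.1 against YUMM1.1 had 1 and 0, and YUMM1.7 against YUMM1.1 had 2 and 0. Taf7, a general transcription factor gene that sits between the beta and gamma clusters, stood at 2.13 FPKM in YUMM2.1, 0.692 in YUMM1.7 and 0.904 in YUMM1.1. Arap3, a GTPase-activating protein gene downstream of the gamma cluster, stood at 10.4 FPKM in YUMM2.1, 3.08 in YUMM1.7 and 0.303 in YUMM1.1. Wdr55, upstream of the alpha cluster, stood at 15.7, 44.7 and 18.7 FPKM, and the histone deacetylase gene Hdac3 at 38.6, 80.7 and 53.1 FPKM, so both were highest in YUMM1.7, the line with the lowest summed protocadherin level.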

How the data were processed

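Total RNA of 3 melanoma cell lines was sequenced, 1 library per line. Per the submitters' processing notes, TopHat2 2.0.9, Cufflinks and Cuffnorm were used. The authors deposited FPKM, 1 value per symbol and line, for 25791 symbols. For the genome build, annotation, filters and scaling between libraries, the sources used here give nothing.

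Members and gene lists were chosen with earlier results of these data known. All members of the rule were kept, without a filter. Differences were read as log2(FPKM + 1) and counted at a difference of 1, with no test, because no line had a replicate. A fold on this scale understates the change of low genes. Summed FPKM was formed per cluster. Named were all members at 1 FPKM or more in any line, the C-type genes, the highest member of each cluster and line, members listed at 0 in some lines and at 0.1 FPKM or more in another, and, from each other list, up to 6 genes past 2-fold, with Ctcf, Smchd1 and Taf7 in any case. Pcdhgb7 was named after its values were seen. Older symbols were matched through RefSeq synonyms.

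The value of 1 fragment was taken as the spacing of low FPKM times transcript length in 808 genes with a single GENCODE M21 transcript of at least 3000 nt. The share of low values at most 0.2 from a whole number of fragments was 79.7% for YUMM2.1, 72.4% for YUMM1.7 and 79.7% for YUMM1.1. The spacing and the count rule were tested on simulated data. Shared sequence was counted as 50-base stretches of the longest transcript of each member. Alternatives were pseudocounts of 0.1 and 5, a mean of at least 0.5 FPKM, 3 rescalings, and sums without leading or C-type genes. Python 3.11.15, numpy 2.4.6, pandas 2.3.3 and matplotlib 3.10.9 were used.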

Additional observations from a re-analysis of the deposited data

How the results depend on the processing

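No paired analysis was possible because each line has 1 library. Counts past 2-fold depended on the pseudocount. With 0.1, the members higher and lower were 16 and 4 in YUMM2.1 against YUMM1.7, 9 and 8 in YUMM2.1 against YUMM1.1, and 5 and 15 in YUMM1.7 against YUMM1.1, beside 10.6% and 12.7%, 6.91% and 5.76%, and 10.0% and 8.24% of all symbols. With 5 they were 3 and 0, 0 and 0, and 0 and 1, beside 2.02% and 5.85%, 0.822% and 1.76%, and 3.61% and 2.1%. The low pseudocount gave medians of 0.32 for YUMM2.1 over YUMM1.7 and -0.22 for YUMM1.7 over YUMM1.1, and 0 for all symbols. For the 16 members with a mean of at least 0.5 FPKM the medians were 0.36, 0.34 and -0.72 in the same order of comparisons, beside -0.01, -0.05 and 0.01 for all symbols with that mean and 0.17, 0.01 and -0.10 for those within the members' length range, and the YUMM2.1 over YUMM1.7 comparison had 1 lower member.

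Rescaling to a common FPKM sum moved the median of all symbols with a mean of at least 0.5 FPKM by 1.09, 0.47 and -0.61. It gave 9 higher and 0 lower members in YUMM2.1 against YUMM1.7 and 1 higher and 8 lower in YUMM1.7 against YUMM1.1, beside 25.0% and 1.98%, and 2.57% and 12.5%, of all symbols. The log2 ratios of summed FPKM were then 5.91, 2.17 and -3.74 for the alpha cluster, 2.45, 0.39 and -2.06 for beta, and 2.99, 0.15 and -2.84 for gamma. As deposited they were 4.51, 1.58 and -2.93 for alpha, 1.05, -0.20 and -1.25 for beta, and 1.59, -0.44 and -2.03 for gamma. A common upper quartile and the median ratio moved none of these counts, medians or sums past the limits of 1.5-fold or 0.1, but the beta ratio of YUMM2.1 over YUMM1.1 changed sign under the upper quartile, to 0.022.

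Single genes weighed on the sums. Without Pcdhgc3, the highest gamma gene of each line, the gamma log2 ratios were 0.52 for YUMM2.1 over YUMM1.7 and -0.58 for YUMM1.7 over YUMM1.1, and without all C-type genes 0.77 and -0.85. Without the highest member of each line the alpha ratio was 0.35 for YUMM2.1 over YUMM1.1 and -3.82 for YUMM1.7 over YUMM1.1. Without its C-type genes it was 3.85, 0.028 and -3.82 in the order of comparisons.

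For 18 named members, those at 1 FPKM or more in any line and the C-type genes, 364 differences were recomputed. Of these, 316 stayed on their side of 2-fold, 22 passed it and 26 no longer did. Of those that had passed, 0 changed sign. Some within 2-fold did under the common FPKM sum, such as Pcdhb16 in YUMM2.1 against YUMM1.7, from -0.27 to 0.17. The 316 include 45 values under the mean filter and 49 with members listed at 0 left out. Those 2 settings do not alter the value of a gene, so these had to stay the same. A pseudocount cannot change a sign, so only the rescalings could have done so.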
